A study of Mus musculus with 4 samples.

Results

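Kit, Cd34, Flt3, Gata2, Meis1, Myb, Myc, Hlf and Erg are genes used to recognise haematopoietic stem cells and early progenitors, and their RNA was followed here in 4 bulk RNA-seq libraries of mouse myeloid cells. The 9 genes were taken by name from the 24706 genes of each library, and all 9 were found. They were listed for their place in haematopoiesis, in connection with the question of whether progenitors are altered when PD-1 is removed from myeloid cells. Of the 9 genes, 5 (Kit, Cd34, Myb, Myc and Erg) averaged 1 FPKM or more and entered the test, and Flt3, Gata2, Meis1 and Hlf did not. FPKM values are read numbers divided by the length of the gene and by the depth of the library.

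The 2 wt libraries are the controls, which the study describes as wild-type mice in one place and as PD-1f/f mice in others. The 2 cko libraries are from the conditional knockout, PD-1f/f; LysM-Cre, in which part of Pdcd1, the gene of PD-1, lies between LoxP sites and Cre is made from the lysozyme M locus of myeloid cells. Deletion therefore depends on the activity of that locus in each cell, and the floxed mice were made with CRISPR-Cas9. Both groups are labelled as myeloid cells, and the study describes them in one place as CD11b+ cells isolated from liver by flow cytometry at postnatal day 3 and in another as RNA of fetal livers at postnatal day 2. Neither account was resolved by the labels. Nothing states whether libraries of a group came from separate animals, so the p-values measure only the spread between these libraries, which may be technical in the cko group. The 2 wt libraries differed in sex-linked RNA, as given below with the other checks, and so were not repeats of 1 animal.

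Haematopoietic stem cells give rise to multipotent and then lineage-restricted progenitors, among them the common myeloid progenitor, which yields granulocyte-monocyte progenitors and megakaryocyte-erythroid progenitors. The liver is the main site of blood formation in the fetus and still holds such cells around birth. Receptors such as Kit and Flt3 receive growth signals on these cells, Cd34 is a surface sialomucin that marks them, and a network of transcription factors keeps them immature or drives them to divide. Kit remains on mast cells, and Gata2 is active in mast cells and basophils, so the same RNA can come from mature cells. In bulk RNA, fewer cells of a type and less RNA per cell cannot be told apart.

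The libraries held 17691504 to 22212407 counted reads. Pdcd1 had 28.5 and 34.7 FPKM in the wt libraries and 17.1 and 21.4 FPKM in the cko libraries, a log2 difference of -0.69 with an adjusted p of 0.218 (limma, Benjamini-Hochberg). Lyz2, the lysozyme M gene, had 31306 and 32147 FPKM in wt and 10422 and 8127 FPKM in cko. The defining myeloid marker Itgam, which encodes CD11b, had 48.5 to 54.3 FPKM in all 4 libraries. Other myeloid markers were less even. S100a8 had 32243 and 21503 FPKM in wt and 13010 and 12062 FPKM in cko, whereas Spi1 had 77.3 and 126 FPKM in wt and 264 and 145 FPKM in cko. The 12 myeloid markers, Lyz2 and S100a8 included, summed to 64483 and 54738 FPKM in wt and to 24512 and 21214 FPKM in cko. Of the 11 tested, 6 were higher and 5 lower in cko, with a median log2 difference of 0.12. Red cell and liver transcripts were also present: the 10 erythroid markers summed to 3734 and 2341 FPKM in wt and to 1416 and 1516 FPKM in cko, and the 11 hepatocyte markers to 88.5 and 151 FPKM in wt and to 64.4 and 75.8 FPKM in cko. Wt replicate 2 was the library with Y-linked RNA, with 24.9 FPKM of Ddx3y and 0.0119 FPKM of Xist. The other 3 libraries had at most 0.00866 FPKM of Ddx3y and 4.91 to 7.98 FPKM of Xist. Values without each library are therefore given where they matter.

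None of the 9 genes was called different between cko and wt. With limma on log2(FPKM + 1), 0 of the 5 tested genes passed a log2 fold change of at least 1 with an adjusted p under 0.05, as did 0 of all 10779 tested genes (0% of the background). Of all tested genes, 1768 had an unadjusted p under 0.05, and voom on the recovered reads called 2 of 13116 genes at the adjusted threshold. None of the 5 passed the milder rule of a log2 fold change above 1 with an unadjusted p under 0.01, against 247 of 10779 genes (2.29%). Those 247 genes were 203 higher and 44 lower in cko, and 142 higher and 72 lower once libraries were scaled by the median of ratios. Kit and Myb were lower in both cko libraries than in both wt libraries, and the other 7 genes overlapped between the groups.

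By mean level the order was Myc, Erg, Cd34, Kit, Myb, Hlf, Gata2, Flt3 and Meis1. On the FPKM scale, which is per length, Myc (5.83 to 24.9 FPKM) and Erg (4.34 to 7.79 FPKM) overlapped in their ranges over the 4 libraries. Erg stood above Cd34 (2.91 to 4.24 FPKM) in all 4 libraries and their ranges did not overlap. Cd34, Kit and Myb overlapped with their neighbours. The ranges of Myb (1.63 to 3.32 FPKM) and Hlf (0.592 to 1.24 FPKM) were apart. Hlf, Gata2, Flt3 and Meis1 overlapped each with the next, down to 0.188 to 0.263 FPKM for Meis1. The 9 genes thus fell into an upper group of 5 at several FPKM and a lower group of 4 near or below 1 FPKM.

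**Figure D1:**
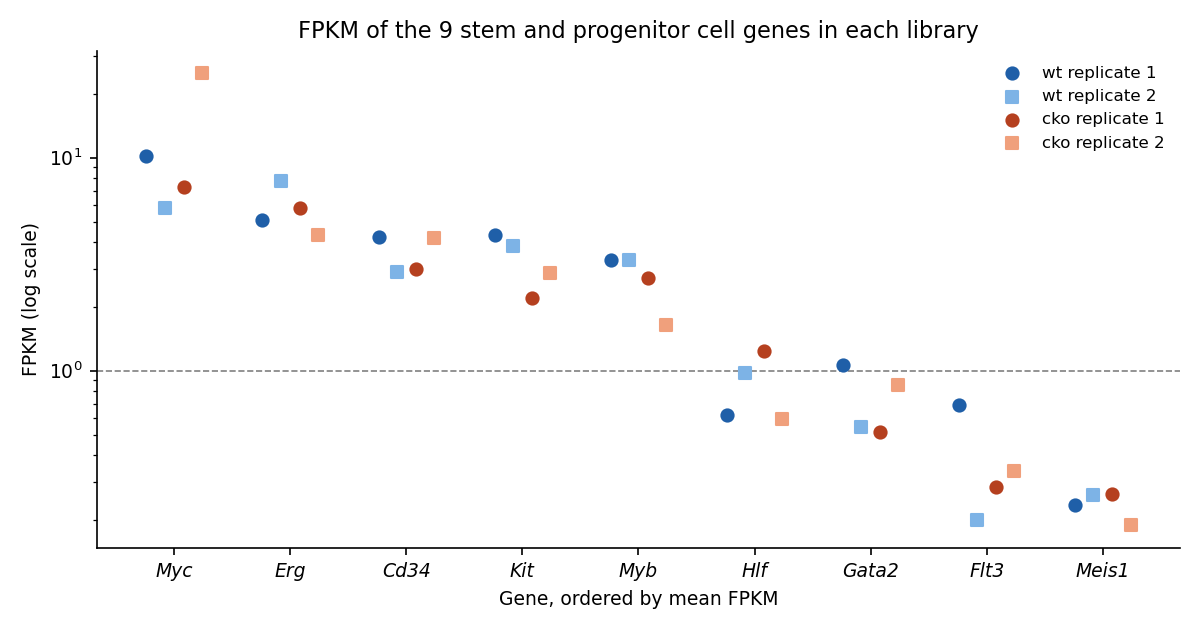
The plot gives the FPKM of each gene (log axis) in each of the 4 libraries, ordered by mean FPKM, with the 1 FPKM filter as a dashed line. Kit and Myb show both cko points below both wt points, Myc has a single high point of 24.9 FPKM in cko replicate 2, and Hlf, Gata2, Flt3 and Meis1 have means under the filter.

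Kit encodes the receptor tyrosine kinase for stem cell factor. It lies on the plus strand of chromosome 5 from 75574916 to 75656722 (GRCm38). Its level was 4.33 and 3.85 FPKM in wt (857 and 645 reads) and 2.19 and 2.87 FPKM in cko (365 and 452 reads), replicate 1 being given first here and in what follows. Both cko libraries were below both wt libraries, with means of 4.09 ± 0.342 FPKM in wt and 2.53 ± 0.482 FPKM in cko (SD, n = 2), a ratio of 0.618. On the log2(FPKM + 1) scale the difference was -0.53 with an SE of 0.20 and a 95% interval from -1.04 to -0.02. The unadjusted p was 0.0429 and the adjusted p was 0.288 (limma, Benjamini-Hochberg). Kit was the single member with an unadjusted p under 0.05, while 4.95% of the tested genes were lower in cko and 11.4% were higher in cko at that limit. Those shares come from 534 lower and 1234 higher genes, which became 854 lower and 822 higher under median-of-ratios scaling. Kit stayed negative whichever library was omitted, from -0.67 to -0.39, and its unadjusted p then lay between 0.0557 and 0.183. Without wt replicate 2, the library with Y-linked RNA, it was -0.60 with an unadjusted p of 0.0834 (limma). An exact permutation test of 2 against 2 libraries cannot give a two-sided p below 1 in 3.

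Flt3, the receptor for Flt3 ligand on lymphoid-primed and dendritic cell progenitors, lies on the minus strand of chromosome 5 from 147330741 to 147400489. It was measured at 0.693 and 0.198 FPKM in wt (95 and 23 reads) and at 0.285 and 0.339 FPKM in cko (33 and 37 reads). Wt replicate 1 was high and the other 3 libraries were low, so the groups overlapped. The ratio of the 2 wt libraries was 3.50 (95% counting interval 2.2 to 5.79). The difference of -0.12 on the log2(FPKM + 1) scale turned to 0.13 without wt replicate 1.

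Cd34 lies on the plus strand of chromosome 1 from 194938819 to 194961279. It had 4.24 and 2.91 FPKM in wt (686 and 399 reads) and 3.0 and 4.18 FPKM in cko (410 and 539 reads). Each group held 1 library above 4 FPKM and 1 at about 3 FPKM. The group means were 3.57 ± 0.939 FPKM in wt and 3.59 ± 0.833 FPKM in cko (SD, n = 2). The log2 difference was 0.01 with a 95% interval from -0.60 to 0.62 and an adjusted p of 0.990 (limma). A change of this width in either direction was not excluded at this depth and replication, and the sign was negative under median-of-ratios scaling (-0.08), quantile normalization (-0.10) and voom (-0.01).

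Myb is a transcription factor needed for the expansion of immature haematopoietic cells, and its RNA declines as they mature. It lies on the minus strand of chromosome 10 from 21124935 to 21160984. Its level was 3.32 FPKM in each of the wt libraries (658 and 558 reads), and 2.72 and 1.63 FPKM in the cko libraries (456 and 257 reads). Both cko libraries were below both wt libraries, yet the cko libraries differed from each other by a ratio of 1.67 (95% counting interval 1.43 to 1.96). The ratio of the means was 0.656. The log2 difference was -0.47 with an SE of 0.24, a 95% interval from -1.07 to 0.14 and an adjusted p of 0.392 (limma). It was -0.21 without cko replicate 2 and -0.72 without cko replicate 1. Among all tested genes, 1939 (18.0%) had both cko libraries below both wt libraries and 3621 (33.6%) had both above. Of the 9 genes here 2 were below and 0 above, and of the 5 tested genes the same 2 were below. With median-of-ratios scaling, 2782 of all tested genes were below and 2650 above.

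Since Kit and Myb were lower in the same libraries, the sequences upstream of their starts are shown, with that of Cd34, whose group means were nearest to each other among the tested genes. They are RefSeq windows on GRCm38.p6 that end at the annotated start of the gene, written 5′ to 3′ on the strand of the gene. Kit is chr5:75574737-75574915 on the plus strand, Myb is chr10:21160985-21161234 on the minus strand and Cd34 is chr1:194938571-194938818 on the plus strand. Capitals mark GGAA or its reverse complement TTCC, the core letters bound by ETS factors such as Erg and Fli1.
Kit: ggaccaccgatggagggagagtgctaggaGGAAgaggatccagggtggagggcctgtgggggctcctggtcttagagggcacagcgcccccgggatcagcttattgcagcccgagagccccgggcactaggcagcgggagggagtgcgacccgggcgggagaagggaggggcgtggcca
Myb: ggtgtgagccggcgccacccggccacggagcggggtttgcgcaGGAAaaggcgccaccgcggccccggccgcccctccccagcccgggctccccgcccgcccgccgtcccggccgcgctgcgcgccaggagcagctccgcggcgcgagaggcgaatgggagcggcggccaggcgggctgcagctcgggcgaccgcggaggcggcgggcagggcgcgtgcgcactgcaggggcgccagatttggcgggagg
Cd34: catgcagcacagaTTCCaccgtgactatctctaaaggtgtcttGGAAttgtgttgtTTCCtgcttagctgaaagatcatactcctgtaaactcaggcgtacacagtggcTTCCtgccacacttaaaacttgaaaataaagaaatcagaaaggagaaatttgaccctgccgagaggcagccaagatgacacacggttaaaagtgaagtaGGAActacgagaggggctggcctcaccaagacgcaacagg

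In the 250 bases before the RefSeq start, GGAA on either strand was found 1 time in Kit, 1 time in Myb and 5 times in Cd34. Of the 9 genes, 8 matched a window, and 7 of the 8 held GGAA, which is in 93.4% of all 32851 windows of the same length. GATAA, the letters of GATA factors, was in 0 of the 8 windows and in 22.6% of all windows. CACGTG, the E-box of Myc with Max, was in 0 of 8 and in 6.02% of all, and TGACAG, the letters of Meis factors, in 0 of 8 and in 15.9% of all. AACNG, the letters of Myb, was in 6 of 8 and in 74.2% of all, but in neither Kit nor Myb. All searches covered both strands, and AACNG and GGAA can overlap. The windows differed in base composition, with 70.8% G and C in Kit, 81.2% in Myb and 46.4% in Cd34, where the median of all windows was 52.4%. A match is a description of the letters in the window and says nothing on binding.

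Myc drives growth and ribosome production and partners with Max. It lies on the plus strand of chromosome 15 from 61985391 to 61990374. It had 10.2 and 5.83 FPKM in wt (616 and 298 reads) and 7.29 and 24.9 FPKM in cko (371 and 1199 reads). Cko replicate 2 was far above the other 3 libraries, and cko replicate 1 lay between the wt libraries. The ratio of the cko libraries was 3.42 (95% counting interval 3.04 to 3.86), the widest gap between replicates among the tested members. The log2 difference was 0.75 with an SE of 0.56, a 95% interval from -0.65 to 2.14 and an adjusted p of 0.525 (limma). It was -0.08 without cko replicate 2 and 1.57 without cko replicate 1. Immediate early genes, which respond within minutes to stimulation or handling, were also highest in that library as a sum. The sum was 2890 and 2662 FPKM in wt, 3592 FPKM in cko replicate 1 and 4365 FPKM in cko replicate 2. Single genes differed: Fos (1487 and 1447 FPKM in cko) and Ier2 (771 and 604 FPKM in cko) were highest in cko replicate 1. Fosb was lowest in cko replicate 2, with 66.5 and 67.7 FPKM in wt and 60.3 and 57.2 FPKM in cko. The other listed genes were highest in cko replicate 2. The part of immediate early genes in the Myc value was not tested.

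Erg is an ETS factor of stem cells and of endothelium. It lies on the minus strand of chromosome 16 from 95359169 to 95586593. It had 5.08 and 7.79 FPKM in wt (391 and 508 reads) and 5.79 and 4.34 FPKM in cko (376 and 266 reads). Wt replicate 2 was the highest and cko replicate 2 the lowest, with the groups overlapping. The log2 difference was -0.28 with an SE of 0.25, a 95% interval from -0.90 to 0.34 and an adjusted p of 0.599 (limma). It was -0.01 without wt replicate 2, the library with Y-linked RNA, and -0.55 without wt replicate 1. The 12 endothelial markers, whose part in the Erg value was not tested, summed to 68.2 FPKM in wt replicate 1 and 50.9 FPKM in wt replicate 2, and to 56.7 and 65.0 FPKM in cko. Of the 11 tested among them 7 were higher and 4 lower with a median of 0.03. Stab2, a scavenger receptor of liver sinusoids, had the highest difference (1.97), with 0.319 and 0.315 FPKM in wt and 3.61 and 4.76 FPKM in cko. It was the 1 gene of the 11 past the milder rule (2.29% of all tested genes). Cdh5, the cadherin of endothelial junctions, had the lowest (-0.53), with 2.73 and 1.39 FPKM in wt and 1.14 and 0.995 FPKM in cko. Lyve1, a hyaluronan receptor, was the most abundant, at 18.6 and 13.9 FPKM in wt and 13.6 and 19.7 FPKM in cko.

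Gata2, a zinc finger factor required by stem cells, mast cells and basophils, lies on the plus strand of chromosome 6 from 88193891 to 88207032. It had 1.06 and 0.541 FPKM in wt (127 and 55 reads) and 0.514 and 0.859 FPKM in cko (52 and 82 reads). Wt replicate 1 and cko replicate 2 were the high libraries, and the difference was -0.09 on the log2(FPKM + 1) scale. Hlf, a PAR bZIP factor of stem cells that the liver also makes, lies on the minus strand of chromosome 11 from 90336536 to 90390895. It had 0.620 and 0.978 FPKM in wt (92 and 123 reads) and 1.24 and 0.592 FPKM in cko (155 and 70 reads). The difference of Hlf was 0.08, and -0.17 without cko replicate 1. The part of liver cells in its level was not tested. Meis1, a homeobox factor that partners with Hox and Pbx proteins, lies on the minus strand of chromosome 11 from 18879817 to 19018985. It had 0.235 and 0.262 FPKM in wt (55 and 52 reads) and 0.263 and 0.188 FPKM in cko (52 and 35 reads). Its replicate ratios had counting intervals that include 1 in both groups, and its difference was -0.03.

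**Figure D2:**
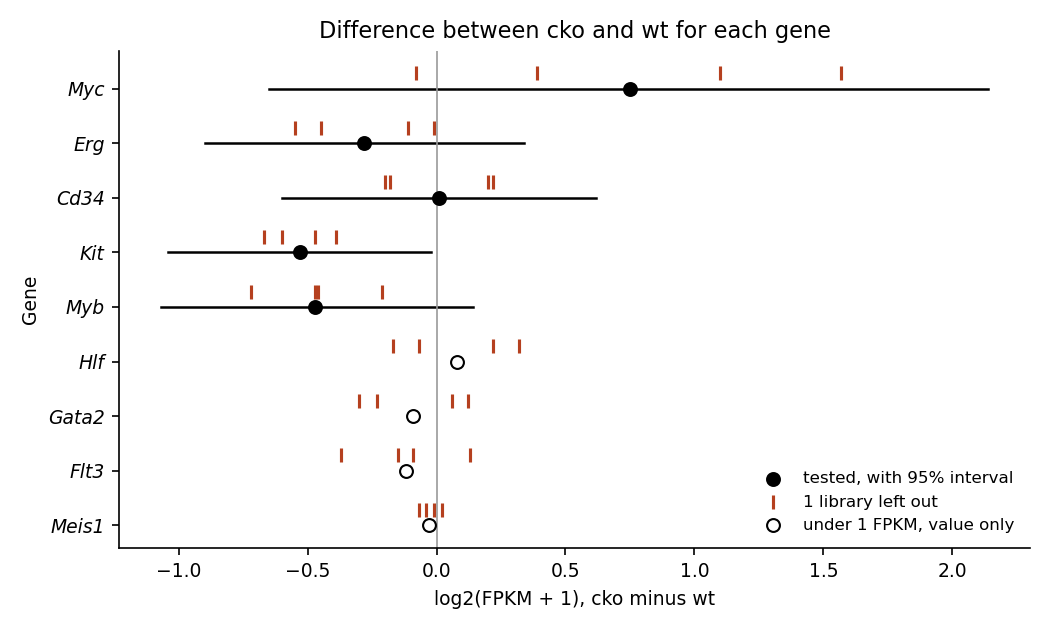
The plot gives the difference cko minus wt in log2(FPKM + 1) for each gene, as a filled point with its 95% interval (limma) for the 5 tested genes and as an open point for the 4 genes under 1 FPKM on average, with red ticks for the values when 1 library is omitted. Kit, Myb and Erg have all 4 ticks below 0, that of Erg without wt replicate 2 being at -0.01, whereas the other 6 genes have ticks on both sides.

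The spread between replicates was wider than counting error in most cases. The ratio of depth-scaled reads between the 2 libraries of a group had a 95% counting interval that excluded 1 in 14 of 18 comparisons. The 4 exceptions were Meis1 in both groups, Flt3 in cko and Myb in wt. Intervals cover counting error only. Cd34, Flt3, Gata2 and Myc had wt replicate 1 above wt replicate 2 and cko replicate 2 above cko replicate 1, so that wt replicate 1 and cko replicate 2 were the 2 highest libraries for each. Erg, Hlf and Meis1 had wt replicate 2 and cko replicate 1 as the 2 highest. Together these were 7 of the 9 genes, and Kit and Myb alone had the wt libraries as the 2 highest. This is a description of the order within 4 libraries, and no test was made of it.

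**Figure D3:**
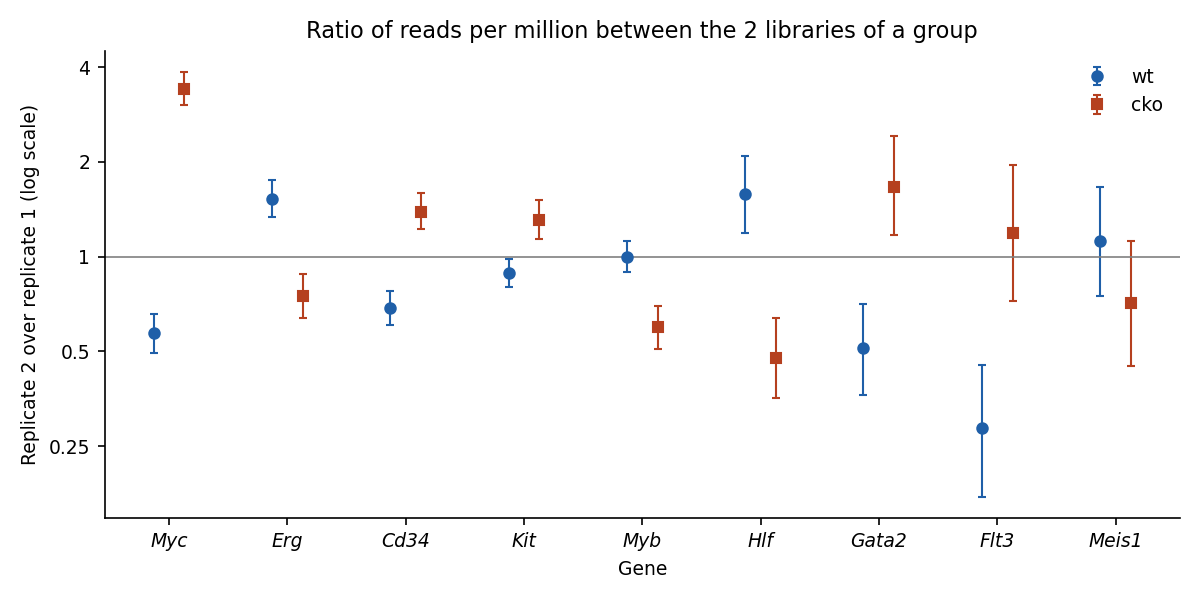
The plot gives the ratio of depth-scaled reads in replicate 2 to replicate 1 (log axis) for each gene, in wt and in cko, with 95% counting intervals. The ratio of Myc is 0.571 in wt and 3.42 in cko, that of Myb in wt lies at 1.0, and 14 of the 18 intervals do not include 1.

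Of the 10 mast cell and basophil markers measured 8 were tested, 6 higher and 2 lower in cko, with a median of 0.35. Some had wt replicate 1 and then cko replicate 2 as their highest libraries, as Cd34, Flt3 and Gata2 did. Prss34, a basophil protease, was highest in wt replicate 1 (60.4 FPKM) and cko replicate 2 (38.9 FPKM) and lowest in wt replicate 2 (14.7 FPKM), and Cpa3, a mast cell and basophil protease, had 16.9 and 3.47 FPKM in wt and 6.01 and 11.2 FPKM in cko. Mcpt8, also of basophils, had 24.4 and 9.48 FPKM in wt and 7.0 and 17.2 FPKM in cko. Cpa3 and Prss34 were named after their values were seen. Ms4a2, Mcpt4, Cma1, Tpsb2 and Hdc were instead highest in cko replicate 2. The 10 markers together summed to 181 and 98.5 FPKM in wt and to 145 and 280 FPKM in cko, of which Hdc, the histidine decarboxylase also made by other myeloid cells, gave 67.9 and 65.1 FPKM and 104 and 193 FPKM. Fcer1a was at 0 in wt replicate 2 and cko replicate 2, and Tpsab1 at 0 in wt replicate 2 and cko replicate 1. Megakaryocyte markers summed to 29.0 and 15.3 FPKM in wt and to 15.6 and 21.8 FPKM in cko. The part of these cells in the levels of Kit, Cd34, Flt3 and Gata2 was not tested.

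As a list, the 5 tested members had a median log2 difference of -0.28, with 2 higher and 3 lower in cko, beside a median of 0.09 over all 10779 tested genes, of which 6510 were higher and 4269 lower. That background depended on the scaling, being -0.01 with median-of-ratios factors, where the members had a median of -0.38. It was 0.27 with the erythroid and hepatocyte markers removed and the FPKM totals of the libraries made equal, where the members had a median of -0.10. The markers were a small part of those totals, so these 2 values reflect mainly the equal totals. The median of the members moved between -0.47 and -0.18 as single libraries were omitted.

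Other stem and progenitor genes gave no single direction. Of 14 surface genes listed, 13 were measured and 8 tested, of which 3 were higher and 5 lower with a median of -0.02. The highest difference was that of Cd93 (0.35) and the lowest that of Fcgr3 (-0.35), the Fc receptor used to gate granulocyte-monocyte progenitors, with 62.7 and 173 FPKM in wt and 129 and 51.5 FPKM in cko. Slamf1, a marker of long-term stem cells, was at 0 in wt replicate 1 and cko replicate 1 and reached 0.0690 FPKM at most. Cd27, a receptor found on progenitors and lymphocytes, had 0.986 and 1.07 FPKM in wt and 0.298 and 0.267 FPKM in cko. It was under the filter on mean level and was named after its values were seen.

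Of 25 other stem and progenitor transcription factors, 24 were measured and 13 tested, with 5 higher and 8 lower and a median of -0.19. Ikzf1, the lymphoid and myeloid factor Ikaros, had the highest difference (0.67), with 32.7 and 33.5 FPKM in wt and 53.1 and 53.2 FPKM in cko and an adjusted p of 0.199 (limma). Gfi1b, a transcriptional repressor active in the erythroid and megakaryocyte lineages, had the lowest (-0.56), with 21.6 and 12.7 FPKM in wt and 12.8 and 9.24 FPKM in cko. Hhex, a homeobox factor of early blood and endothelial progenitors, was the most abundant, at 118 and 147 FPKM in wt and 113 and 81.4 FPKM in cko. Hoxa5 was at 0 in 3 libraries.

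Ligands of the receptors were barely present. Of 5 ligands listed 4 were measured and none reached the filter. Kitl, the ligand of Kit, had 0.800 and 0.782 FPKM in wt and 0.731 and 1.16 FPKM in cko, and Flt3l had 0.557 and 0.534 FPKM in wt and 0.963 and 0.525 FPKM in cko. Csf2 was at 0 in 3 libraries.

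Binding partners and relatives of the 9 proteins had a median difference of 0.33, with 9 of 12 tested genes higher and 3 lower, where 6510 of all 10779 were higher. At an unadjusted p under 0.05, 5 of the 12 were higher (11.4% of all tested genes) and 1 was lower (4.95% of all), which was Pbx2 at -0.46, named after its value was seen. At the milder rule of a log2 fold change above 1 with an unadjusted p under 0.01 (limma), 2 of the 12 were higher and 0 lower. They were Max and Nfil3 (1.16, named after its value was seen), where 2.29% of all tested genes passed in either direction. Max, the partner of Myc, had 14.7 and 12.6 FPKM in wt and 34.6 and 31.5 FPKM in cko, a log2 difference of 1.22 with an adjusted p of 0.183 (limma). Mxd1, which competes with Myc for Max, was the most abundant, at 148 and 158 FPKM in wt and 198 and 219 FPKM in cko. Gata1, the erythroid relative of Gata2, had the lowest difference (-0.73), with 14.5 and 7.50 FPKM in wt and 5.89 and 5.96 FPKM in cko. For Max and Mxd1 the 2 groups did not overlap, in contrast to Myc itself. Of the 12 tested genes, 8 had both cko libraries above both wt libraries (33.6% of all tested genes) and 2 had both below (18.0% of all).

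Of 25 Myc target genes 23 were tested, 20 higher and 3 lower, with a median of 0.35. In 11 of the 23 both cko libraries were above both wt libraries (33.6% of all tested genes), 4 were higher with an unadjusted p under 0.05 (11.4% of all) and 0 passed either threshold. Rrs1, a ribosome assembly factor, had the highest difference (0.98), with 9.43 and 8.46 FPKM in wt and 16.0 and 21.4 FPKM in cko. Tfrc, the transferrin receptor that erythroid cells also make in large amounts, had the lowest (-0.42). Hspd1, a mitochondrial chaperone, was the most abundant, at 72.9 and 56.8 FPKM in wt and 59.0 and 86.4 FPKM in cko. Without cko replicate 2, the library with the high Myc level, the median was 0.11, where that of all tested genes was 0.09.

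Genes of the 2 branches below the common myeloid progenitor had medians of opposite sign. Of 12 granulocyte-monocyte progenitor genes 11 were tested, with 9 higher and 2 lower, 7 with both cko libraries above both wt libraries (33.6% of all tested genes), and a median of 0.35. Elane, neutrophil elastase and the most abundant of them, had 617 and 646 FPKM in wt and 945 and 749 FPKM in cko. Csf1r, the receptor of monocytes and macrophages, had the highest difference (0.95), with 40.9 and 33.0 FPKM in wt and 45.6 and 113 FPKM in cko, and Cebpe, a factor of late granulocyte maturation, the lowest (-0.58). Of 10 megakaryocyte-erythroid progenitor genes 9 were tested, all 9 lower, 4 with both cko libraries below both wt libraries (18.0% of all), and a median of -0.56. Rhag, a red cell membrane protein, had the lowest difference (-0.81), with 12.5 and 8.68 FPKM in wt and 5.50 and 5.51 FPKM in cko. Car2, carbonic anhydrase 2 and the most abundant, had 249 and 171 FPKM in wt and 133 and 146 FPKM in cko. At an unadjusted p under 0.05, 3 of the 11 were higher (11.4% of all tested genes) and 3 of the 9 lower (4.95% of all), and no gene of either list passed either threshold. Of all 10779 tested genes, 6510 were higher and 4269 lower. Gata1, Gfi1b, Zfpm1, Itga2b, Tek, Tfrc and Fcgr3 stand in more than 1 of the lists described here, as do Csf1r and Csf3r, which are also myeloid markers. The part of mature myeloid cells in the values of the granulocyte-monocyte progenitor genes was not tested. The medians of the 2 branches ranged from 0.25 to 0.42 and from -0.82 to -0.21 as single libraries were omitted, with -0.21 without wt replicate 1. The lower list moved with the erythroid markers, whose median was -0.97 over 9 tested genes with 8 lower, and their part in the values of Kit and Myb, which erythroid progenitors also express, was not tested. With the erythroid and hepatocyte markers removed and the other genes rescaled to 1 total, Kit was at -0.37 and Myb at -0.31, where the median of all genes was 0.27. The FPKM totals before rescaling were 491983 and 457127 in wt and 412778 and 403900 in cko. The removed markers were a small part of these totals, so equal totals shifted all genes. That setting therefore does not isolate the part of red cell RNA.

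Genes of B cell progenitors, another immature population that expresses Myb, were lower in 7 of 7 tested, 5 of them with both cko libraries below both wt libraries (18.0% of all tested genes, and 2782 of 10779 with median-of-ratios scaling), and had a median of -0.50. Vpreb1, a surrogate light chain, had the lowest difference (-0.77), with 3.24 and 1.77 FPKM in wt and 0.959 and 1.07 FPKM in cko. Cd79b, a B cell receptor chain, was the most abundant, at 23.5 and 34.6 FPKM in wt and 17.6 and 22.4 FPKM in cko. Ebf1, counted among the 7, was nearly equal at 1.09 and 1.14 FPKM in wt and at 1.03 and 1.19 FPKM in cko. Dendritic cell markers summed to 2.33 and 3.16 FPKM in wt and to 3.34 and 4.75 FPKM in cko, with 1 of 8 above the filter. The part of B cell progenitors in the Myb value was not tested.

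**Figure D4:**
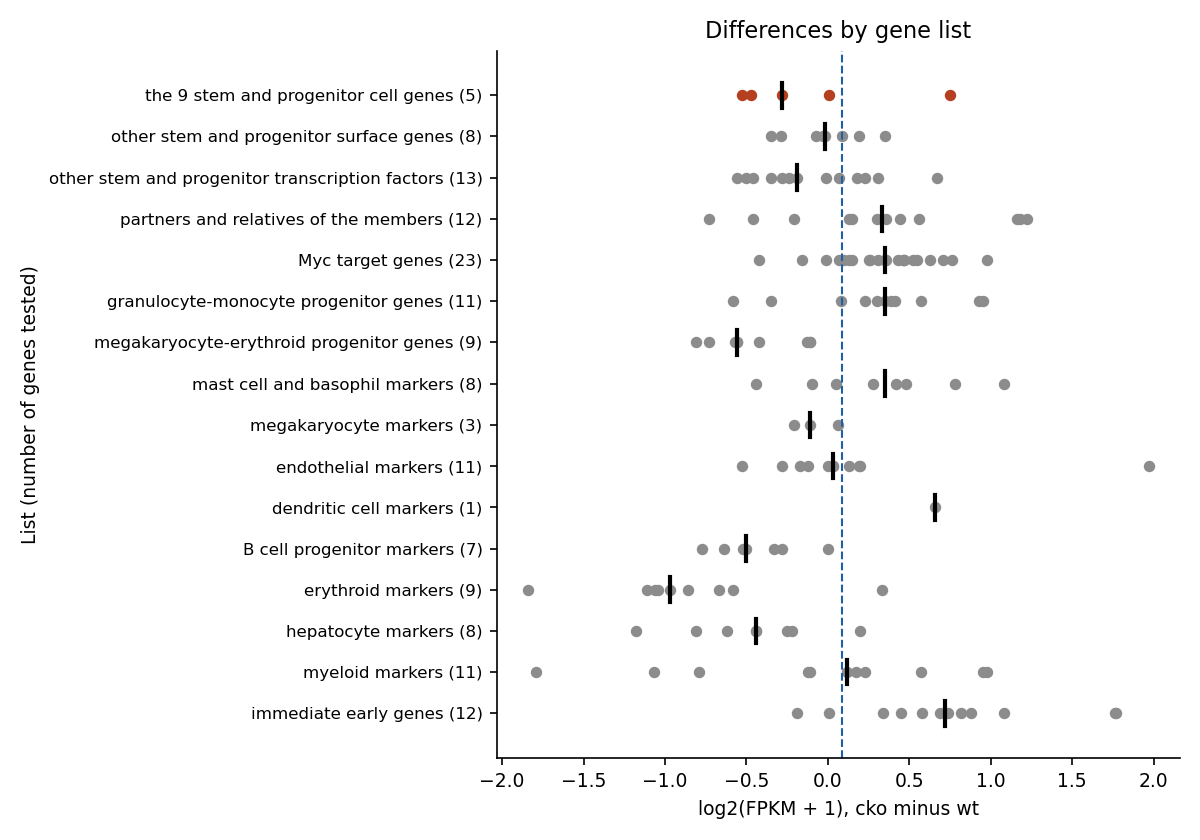
Each grey point is the difference cko minus wt in log2(FPKM + 1) of 1 tested gene of a list, with the members in red, the median of each list as a black bar and the median of all tested genes (0.09) as a dashed line. The granulocyte-monocyte progenitor genes have their median at 0.35, the megakaryocyte-erythroid progenitor genes at -0.56 and the members at -0.28.

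Likeness between genes was measured as the distance between log2(FPKM + 1) values centred on the mean of each gene over the 4 libraries, among genes that average 5 FPKM or more. For Kit the nearest 3 were Scfd1, Gm6467 and Eef1akmt2, with Scfd1 at 10.3 and 9.11 FPKM in wt and 5.67 and 7.16 FPKM in cko. For Myb they were Wdr53, Trabd and Calcoco1, with Wdr53 at 10.6 and 10.7 FPKM in wt and 9.07 and 6.27 FPKM in cko. For Cd34 they were Npm3, Umps and Sparc, and for Erg they were Cracr2a, Mical1 and Chd1l. For Myc they were Marco, Gbp3 and Sdc4, with Marco, a macrophage scavenger receptor, at 44.0 and 24.3 FPKM in wt and 30.8 and 94.0 FPKM in cko. Within a distance of 0.2 there were 79 genes for Kit, 129 for Cd34, 91 for Myb and 58 for Erg, and 1 for Myc. With 4 libraries such likeness was shared by many genes for Kit, Cd34, Myb and Erg. The distance was not scaled to the size of a gene's differences, so a gene with wide swings such as Myc has fewer genes within 0.2. The counts therefore do not tell whether the Myc pattern was rarer.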

How the data were processed

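RNA-seq of 4 libraries labelled as myeloid cells was analysed, 2 wt and 2 cko, grouped by their labels. The files deposited by the authors, 1 for each library, give FPKM for 24706 genes. The submitters' processing notes name Bowtie2 2.2.3, TopHat2 2.0.12, HTSeq 0.6.0 and mm9, whereas 92.613% of the positions in the files equal those of GENCODE M21, so coordinates are given as GRCm38. Values of single-exon genes were whole multiples of 1 read (tolerance 0.02 reads) in 99.965% to 100% of values per library, which gave the library totals and the reads of 93.653% of the genes. The test was limma 3.58.1 under R 4.3.3 (two-sided, eBayes with trend) on log2(FPKM + 1), which understates changes of low genes, over genes averaging 1 FPKM or more, with Benjamini-Hochberg adjustment. Members under this filter come from a fit without it and are given as values. Intervals of ratios between replicates are 95% intervals from the read counts. Alternatives were other pseudocounts (0.1, 0.01), no filter or one of 5 FPKM, scaling by median of ratios or quantiles, no trend, a block for replicate number, voom on reads (mean of 10 or more) and omission of each library. Removal of erythroid and hepatocyte markers was chosen after seeing the data. It also set the FPKM totals of the libraries equal, and the markers were a small part of each total. Members and lists were chosen with earlier results of these data known. From the progenitor, partner, Myc target, endothelial, B cell and mast cell lists the highest, lowest and most abundant tested genes were named. The erythroid, hepatocyte, myeloid, megakaryocyte, dendritic cell and immediate early lists are given by their sums or medians. Itgam was named as the gene of CD11b, and S100a8, Spi1, Fos, Fosb and Ier2 were named after their values were seen. Also named were markers near 0, Pdcd1, Lyz2 and the 3 genes most like each tested member. The scripts were tested on simulated data. Upstream sequences are from RefSeq (GRCm38.p6); the window nearest to the gene start in the files was used. Cd244a, Hoxa10, Il3, Mcpt1 and Ahsp were not analysed here. Python 3.11.15 and matplotlib 3.10.9 were used.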

Additional observations from a re-analysis of the deposited data

How the results depend on the processing

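The count of members past either threshold stayed at 0 under all 14 alternatives. The count with an unadjusted p under 0.05 was 1 (Kit). It fell to 0 without a filter and with a minimum mean of 5 FPKM (Kit was then not tested). It was also 0 with the erythroid and hepatocyte markers removed and the FPKM totals made equal, and 2 (Kit and Myb) with voom. It ranged from 0 to 2 as single libraries were omitted. With the replicate number as a block it was 0, and Kit had an unadjusted p of 0.0782. The numbers were not shown to pair the libraries, since replicate differences of wt and cko had a correlation of -0.163 over 10779 genes, and the block lowered the count of all genes with an unadjusted p under 0.05 from 1768 to 1247. The 2 members whose groups did not overlap became 0 with a minimum of 5 FPKM, which leaves Myc and Erg. The count became 5 to 6, members under the filter included, as single libraries were omitted, where groups of 1 separate more easily. In those omissions 3003 to 3255 of all 10779 tested genes had cko below wt, and 4776 to 5168 had cko above wt. With no library omitted these were 1939 and 3621, so the rise was shared by the tested genes at large. The median of the tested members was -0.28, ranged from -0.47 to -0.18 over the omissions, and was 0.23 with a minimum of 5 FPKM. Signs turned for Cd34, Flt3, Gata2, Meis1, Hlf and Myc. Cd34 went from 0.01 to -0.08 with median-of-ratios factors, -0.10 with quantile scaling and -0.01 with voom, and ranged from -0.20 to 0.22 over the omissions. Over the omissions Flt3 ranged from -0.37 to 0.13, Gata2 from -0.30 to 0.12, Meis1 from -0.07 to 0.02, Hlf from -0.17 to 0.32 and Myc from -0.08 to 1.57. Gata2 and Meis1 were each at 0.01 with the markers removed and the FPKM totals made equal, and Hlf was at -0.03 with quantile scaling. Kit, Myb and Erg kept their sign under all alternatives that tested them, but Erg was at -0.01 without wt replicate 2. The causes were not tested. Depth limits Flt3 and Meis1 most, at 23 to 95 and 35 to 55 reads per library.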
